A study of Mus musculus with 91 samples.

Results

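The leptin receptor gene Lepr and the PDGF receptor genes Pdgfra and Pdgfrb were followed in single stromal cells of mouse bone marrow, as CPM, counts scaled to the same total in every cell. The members were these 3 named rows of the 16580 genes of the count table, taken whatever their level. The 91 cells came from C57BL/6 mice with no genetic change or treatment stated in the labels, and each was sorted into a well with its antibody and scatter intensities recorded (index sorting) before full-length Smart-seq2 cDNA was made. All were sorted as CD45-, Ter119-, CD41- and CD71- cells, which leaves out most blood cells and red cell precursors, positive for the DNA dye and for the adhesion molecule VCAM1. Of these, 39 cells were also CD61+ (integrin beta 3), 40 were CD61-, and 9 were sorted on VCAM1 with no CD61 gate stated, written VCAM1+ here. For 3 further cells the title gives the CD61- plate and the gate label CD61+, and they entered no comparison between gates. The CD61+ and CD61- cells came from 2 plates each, so that gate and plate are confounded, and no label names an animal, its age or its sex. Each gate was therefore treated as 1 sample, and no p-value is given.

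Lepr encodes the receptor for the fat hormone leptin, a cytokine receptor that signals through JAK2 and STAT3. In adult marrow it is widely used as a mark of the perivascular stromal cells that make the chemokine Cxcl12 and support haematopoietic stem cells, also known as Cxcl12-abundant reticular (CAR) cells. Pdgfra and Pdgfrb encode the alpha and beta receptor tyrosine kinases for platelet-derived growth factors, and both are used to sort mesenchymal progenitors, Pdgfrb also being a classical pericyte gene. Adipoq, the fat cell hormone adiponectin, is made by CAR cells, while Alpl (alkaline phosphatase) and Spp1 (osteopontin) are genes of bone-forming cells.

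In the GENCODE annotation of mm10, Lepr lies on chromosome 4, plus strand, from 101717404 to 101815352, and the separate gene Leprot, which lies before it on the same strand, runs from 101647718 to 101659364. Pdgfra lies on chromosome 5, plus strand, from 75152292 to 75198215. The bases before the earliest annotated exon of Lepr and Pdgfra are shown because both genes have an annotated start after them, and because the transcription factor families EBF, C/EBP and forkhead are known regulators of CAR cells. They are the RefSeq sequences (GRCm38.p6) of chr4:101717157-101717403 and chr5:75152001-75152250, both plus strand, in lower case with motif matches in capitals. The Pdgfra bases end just before the RefSeq start, which lies before the GENCODE start given above.

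Lepr: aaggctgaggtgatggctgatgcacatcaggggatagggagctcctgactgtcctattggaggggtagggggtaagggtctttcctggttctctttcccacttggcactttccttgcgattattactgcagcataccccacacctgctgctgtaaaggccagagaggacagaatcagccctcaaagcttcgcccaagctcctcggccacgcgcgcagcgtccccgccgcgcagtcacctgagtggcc

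Pdgfra: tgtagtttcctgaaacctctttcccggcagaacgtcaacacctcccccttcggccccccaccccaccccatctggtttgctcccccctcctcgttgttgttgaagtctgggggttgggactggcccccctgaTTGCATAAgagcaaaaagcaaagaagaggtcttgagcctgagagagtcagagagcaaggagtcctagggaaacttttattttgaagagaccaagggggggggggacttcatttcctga

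The motifs searched on both strands were CCCNNGGG (EBF-type), TTGCNNAA (C/EBP-type) and TGTTTAC (forkhead-type). In the 250 bases before the start, these letters occur in 11.8%, 9.56% and 3.17% of 32851 RefSeq windows. The Pdgfra window held 1 C/EBP-type match, TTGCATAA at bases 133 to 140, and the Lepr window held no match of the 3. The Lepr window had 10 CpG pairs and the Pdgfra window 4, beside a median of 6. These matches describe the sequence only.

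Total counts per cell ran from 507713 to 6702475 over the 91 cells, with medians of 1887613 in CD61+, 2368345 in CD61- and 4004927 in VCAM1+ cells. The cells were not all reticular cells. When they were clustered without the 3 genes, 9 of 88 formed a mixed cluster that held 4 cells with a count of the endothelial cadherin Cdh5, 3 cells with the fibroblast gene Dcn at 8161 to 16619 CPM and 2 cells with the blood cell gene Laptm5. The gate sums, the share of cells with all 3 genes and the correlations with 4 stromal genes, among the members and with the index channels are also given without this cluster, and the other values include it.

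Lepr had the highest level and the widest range. In the 39 CD61+ cells it ran from 0 to 1410.1 CPM with a median of 182, in the 40 CD61- cells from 0 to 2026 CPM with a median of 400.4, and in the 9 VCAM1+ cells from 0 to 1949 CPM with a median of 4.34. Every gate spanned the range from no count to over 1000 CPM, so the gates overlap cell by cell. The VCAM1+ cells were split: 4 had at least 100 CPM and 3 had no count, and 1 cell held 48.2% of the summed Lepr counts of that gate. With counts summed over the cells of a gate, Lepr stood at 306 CPM in CD61+ (95% Poisson interval 302 to 310.2), 583 CPM in CD61- (578 to 588) and 485 CPM in VCAM1+ cells (478 to 492). These intervals cover counting error only, and the reads carry no molecular identifiers.

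Pdgfra was the lowest of the 3. Its median was 46.1 CPM in CD61+ cells (0 to 416), 30.1 CPM in CD61- cells (0 to 612) and 7.08 CPM in VCAM1+ cells (0 to 234). The summed level was 72.2 CPM in CD61+, 79.9 CPM in CD61- and 62.3 CPM in VCAM1+ cells. In CD61- cells the median was thus lower and the sum higher than in CD61+ cells, and 1 cell held 16.5% of the summed CD61- counts.

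Pdgfrb had the most even gate medians of the 3 by fold. Its median was 85.9 CPM in CD61+ cells (0 to 388), 96.0 CPM in CD61- cells (0 to 288) and 54.9 CPM in VCAM1+ cells (0 to 498). The summed level was 94.7, 111 and 73.3 CPM in the same order. At least 100 CPM was reached by Lepr in 66, by Pdgfrb in 42 and by Pdgfra in 23 of the 91 cells.

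**Figure D1:**
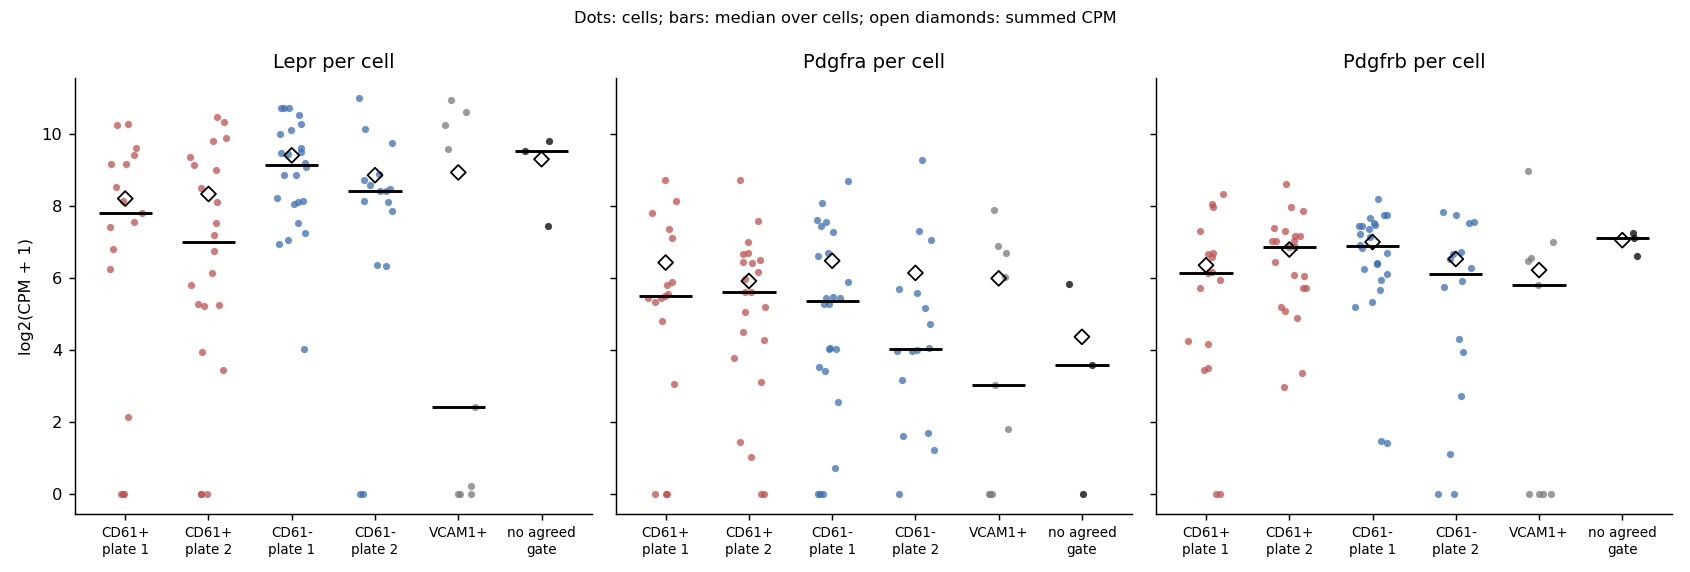
Level of Lepr, Pdgfra and Pdgfrb in each cell, as log2(CPM + 1), by plate for the CD61 gates, for the 9 VCAM1+ cells and for the 3 cells whose labels disagree about the gate. Dots are cells, bars are medians over cells and open diamonds are summed CPM; Lepr spreads from 0 to 2026 CPM and its diamonds lie lower in the CD61+ than in the CD61- plates, while those of Pdgfra and Pdgfrb overlap.

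Because CPM favours long transcripts, the order of the genes was taken per kilobase of annotated exon (7.049 kb for Lepr, 10.024 kb for Pdgfra and 5.478 kb for Pdgfrb). On that scale the summed level of Lepr was 43.4 CPM per kb in CD61+, 82.7 in CD61- and 68.8 in VCAM1+ cells. Pdgfrb followed with 17.3, 20.3 and 13.4 CPM per kb, and Pdgfra with 7.21, 7.97 and 6.22 CPM per kb. The order Lepr, Pdgfrb, Pdgfra was the same in the 3 gate sums. Cell by cell, Lepr was the highest per kb in 62 of 91 cells, Pdgfrb in 15 and Pdgfra in 9, and 5 cells had no count of any. Lepr was on top in 32 of 40 CD61- cells and in 22 of 39 CD61+ cells.

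Between the CD61 gates, Lepr was the member that differed most. Its summed CPM was 292.8 and 320.2 in the CD61+ plates, and 674 and 459.7 in the CD61- plates. Both CD61+ plates were thus below both CD61- plates. The ratio was 1.90-fold lower in CD61+ (interval 1.87 to 1.93 for counting error; log2 ratio -0.93), short of the 2-fold used as a call, and without the CD61- plate P2 it was -1.14 and without P1 -0.59 on the log2 scale. Leaving out any 1 cell moved it between -1.08 and -0.81, so single plates or cells took it past the 2-fold line.

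Pdgfra and Pdgfrb did not separate by gate. Pdgfra stood at 84.8 and 59.2 CPM in the CD61+ plates and at 87.8 and 69.3 CPM in the CD61- plates (log2 ratio of the gate sums -0.15). Pdgfrb stood at 80.5 and 109 CPM against 126 and 90.9 CPM (log2 ratio -0.23). In both, the plates of one gate overlapped those of the other, and the sign of the ratio turned when CD61- plate P1 was left out (0.06 for each gene). For Pdgfra it turned also without CD61+ plate P2 (0.09) and when 1 cell was left out (highest value 0.07). Weighting cells equally as a mean CPM turned it to 0.07 for Pdgfra, and thinning each cell to 500000 counts turned it to 0.06 for each gene. With the mixed cluster left out, the log2 ratios were -0.12 for Pdgfra and -0.16 for Pdgfrb.

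Of the 3 genes, 0 were at least 2-fold lower and 0 at least 2-fold higher in CD61+ cells, beside 17.3% lower and 19.4% higher among the 14063 genes tested. By plates, 1 of 3, Lepr, was lower in both CD61+ plates, beside 17.8% of all genes, and 0 were higher, beside 20.0%. The median log2 ratio of all genes was 0.01. A gene lower in both CD61+ plates was thus common in these data.

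Most cells had a count of each gene. Lepr was counted in 33 of 39 CD61+ cells (84.6%, exact 95% binomial interval 69.5 to 94.1), in 38 of 40 CD61- cells (95.0%, 83.1 to 99.4) and in 6 of 9 VCAM1+ cells (66.7%, 29.9 to 92.5). Pdgfra was counted in 34 of 39 (87.2%, 72.6 to 95.7), 36 of 40 (90.0%, 76.3 to 97.2) and 6 of 9 cells. Pdgfrb was counted in 37 of 39 (94.9%, 82.7 to 99.4), 38 of 40 (95.0%, 83.1 to 99.4) and 5 of 9 cells (55.6%, 21.2 to 86.3). The intervals of the gates overlap for every gene, but they take the cells of a gate as independent draws. They do not cover variation between animals or plates, so they do not measure a difference between gates.

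The genes were mostly counted in the same cells. All 3 were counted in 70 of 91 cells (76.9%): 30 of 39 CD61+, 34 of 40 CD61-, 4 of 9 VCAM1+ and 2 of the 3 cells without an agreed gate. Without the mixed cluster this was 67 of 79 cells (84.8%). Among the 80 cells with Lepr, 72 also had Pdgfra and 77 had Pdgfrb. No cell had Pdgfra as its only counted member, and none had Pdgfrb as its only one.

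**Figure D2:**
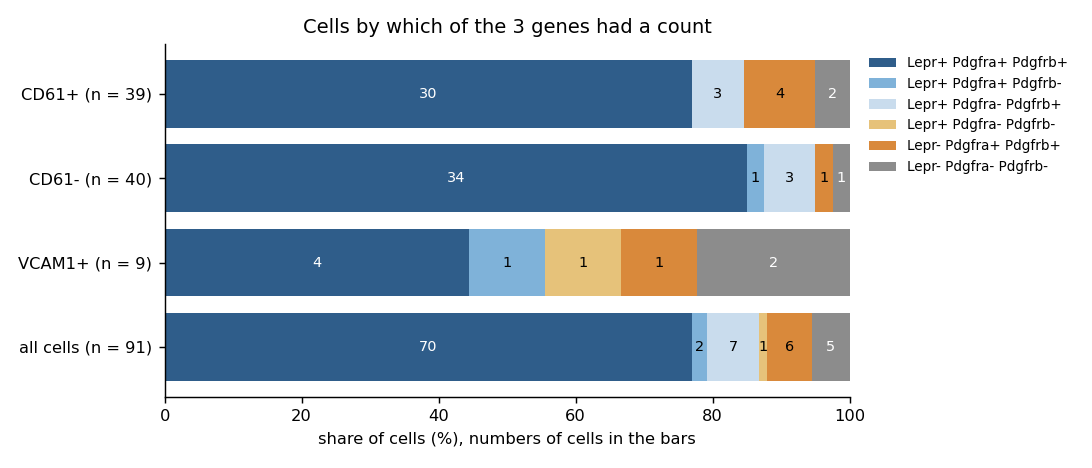
Share of cells with each combination of counted genes, for each gate and for all 91 cells, with the number of cells written in the bars; plus and minus mean at least 1 count and no count. All 3 genes were counted in 70 of 91 cells, both PDGF receptors without Lepr in 6 and none of the 3 in 5.

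The 11 cells with no Lepr count fell into separate kinds. In 6 of them both PDGF receptors were counted. Of these, 4 belonged to the Spp1-led cluster described below, with Spp1 at 19017 to 315750 CPM, and 2 belonged to the mixed cluster, with all 10 fibroblast markers counted and Dcn at 8161 to 13127 CPM. The other 5 had no count of any of the 3 genes and all lay in the mixed cluster: 4 had a Cdh5 count and 1 had Laptm5 at 1868 CPM. All 4 cells with a Cdh5 count thus had no count of Lepr, Pdgfra or Pdgfrb, where 3 counts in their summed total would be 0.287 CPM. The remaining Dcn-high cell, sorted as VCAM1+, did have Lepr, at 1212 CPM.

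Cells without Lepr also differed in their other genes. Cxcl12 was counted in 78 of 80 cells with Lepr (median 17637 CPM) and in 5 of 11 without (at most 560.4 CPM). Adipoq was counted in 58 of 80 and 1 of 11. Ly6a, the Sca-1 antigen of fibroblasts and endothelial cells, was counted in 4 of 80 cells with Lepr and 6 of 11 without, and in 6 of 78 cells with Pdgfra. Cells with counts of both Pdgfra and Ly6a transcripts were therefore few among the VCAM1-sorted cells. The like combination used elsewhere to sort marrow mesenchymal stem cells is read as surface protein. The index channels used here held neither protein, so that population was not measured.

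The clusters place the genes among kinds of cell. Clusters were built on 2000 variable genes without the 3 members and are described, not tested. Cluster 1 (29 cells, 23 of them CD61-) was CAR-like, led by Adipoq, Lpl and Hp. Cluster 2 (16 cells, 13 of them CD61+) was osteolineage-like, led by Spp1 and Bglap2 with all 14 osteolineage markers counted in at least 50% of its cells. Cluster 3 (10 cells) was CAR-like by its marker levels, although no listed marker was among its leading genes. It also had 9 of 14 osteolineage markers counted in at least 50% of its cells. Alpl was counted in 8 of its 10 cells (median 539 CPM), and Spp1 had a median of 464 CPM. Cluster 6 (11 cells) was led by Alpl, with Wif1 and Bglap2, and also had all 12 CAR markers, so it is called by number. Cluster 5 (13 cells) also had all 12 CAR markers but the lowest depth, a median of 2978 genes. It is unnamed, as is the mixed cluster 4.

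Lepr separated these clusters most. It was counted in 29 of 29 cells of cluster 1 (132 to 2026 CPM, median 704), in 10 of 10 cells of cluster 3 (78.7 to 1410.1 CPM, median 534) and in 11 of 11 cells of cluster 6 (54.7 to 853 CPM, median 228). In the osteolineage-like cluster 2 it was counted in 12 of 16 cells, from 0 to 360.7 CPM with a median of 14.8. Lepr was thus low but often present in the Spp1-high cells. In the shallow cluster 5 it ran from 4.34 to 1949 CPM with a median of 294.

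Pdgfra had cluster medians in a narrower range of CPM than Lepr. Its median was 42.6 CPM in cluster 1, 29.4 CPM in cluster 2 and 41.6 CPM in cluster 3. Its highest cluster median was 89.7 CPM in the Alpl-led cluster 6 (2.04 to 416 CPM, counted in 11 of 11 cells). In the shallow cluster 5 its median was 7.61 CPM, and in the mixed cluster it was 0, with 3 of 9 cells counted. Outside the mixed cluster the Pdgfra medians thus ran from 7.61 to 89.7 CPM, and those of Pdgfrb from 36.2 to 149 CPM. By fold the range of Pdgfra was the wider of these 2.

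Pdgfrb was lowest in the osteolineage-like cluster among the named ones, with a median of 36.2 CPM in cluster 2, 119.8 CPM in cluster 1, 149 CPM in cluster 3 and 102 CPM in cluster 6. Per kb, 28 of 29 cells of cluster 1 had Lepr on top. In cluster 2, Pdgfrb was on top in 8 of 16 cells, Lepr in 4 and Pdgfra in 4. The order of the receptors was thus not the same in the Spp1-high cells.

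**Figure D3:**
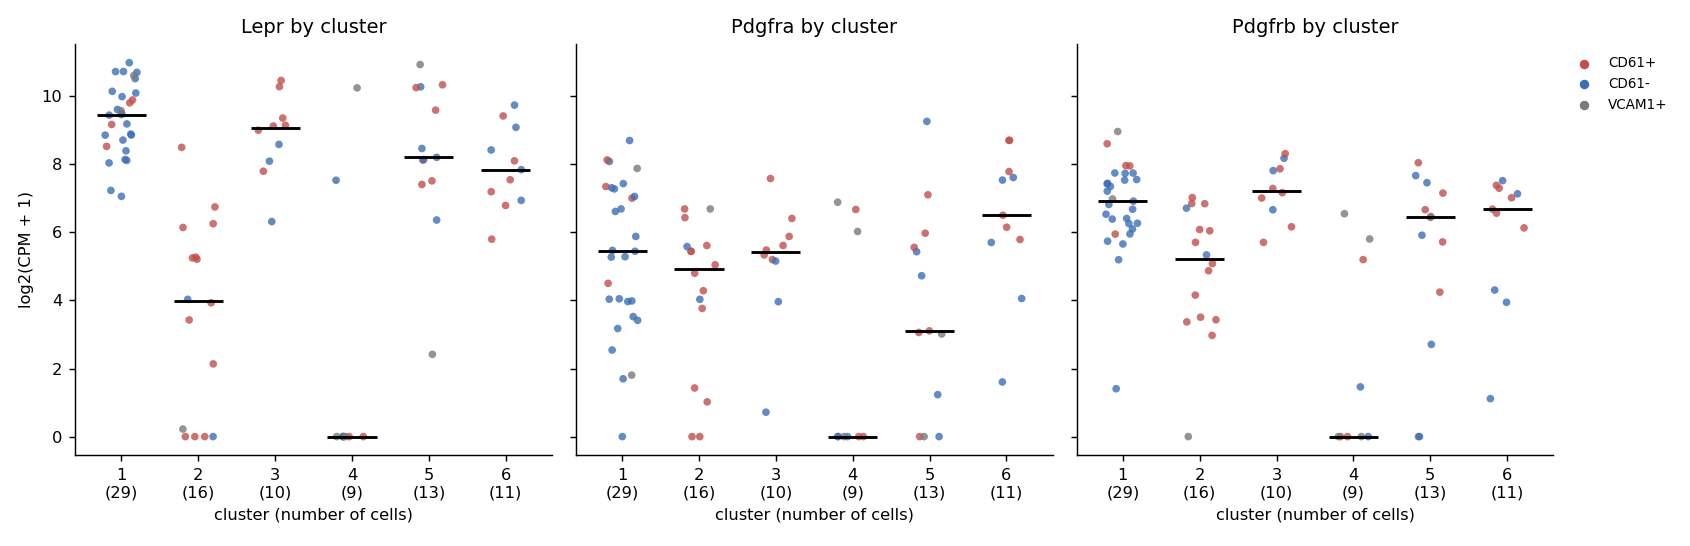
Level of each gene by cluster, as log2(CPM + 1), with the number of cells under each cluster, cells coloured by gate and bars at the medians. Lepr had a median of 704 CPM in CAR-like cluster 1 and 14.8 CPM in osteolineage-like cluster 2, whereas Pdgfra had 42.6 and 29.4 CPM.

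Within clusters the gates did not keep one order for Lepr. Summed over the cells of each gate, Lepr was 620.4 CPM in 4 CD61+ and 824 CPM in 23 CD61- cells of cluster 1, and 263 against 378 CPM in 6 and 5 cells of cluster 6. It was 732 against 221 CPM in 7 CD61+ and 3 CD61- cells of cluster 3, and 617 against 399 CPM in 6 and 5 cells of cluster 5. In cluster 2 it was 48.4 CPM in 13 CD61+ and 7.48 CPM in 2 CD61- cells. The summed level of Lepr was thus lower in CD61+ in clusters 1 and 6 and higher in clusters 2, 3 and 5. In cluster 1 the medians went the other way, 734 CPM in CD61+ and 695 CPM in CD61- cells. Without the mixed cluster the gate sums of Lepr were 335 and 599.7 CPM, 1.79-fold lower in CD61+.

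Across the 88 cells with a gate, Lepr went with Cxcl12 and Adipoq. The Spearman correlation (rho) of log2(CPM + 1) was 0.68 with Cxcl12, 0.75 within CD61+ and 0.56 within CD61- cells, and from 0.42 to 0.82 in the 4 plates. With Adipoq rho was 0.62, 0.69 and 0.39. With Spp1 it was -0.39, -0.53 and -0.19, and with Alpl -0.25, -0.09 and -0.25. Without the mixed cluster (79 cells) the Lepr values were 0.64, 0.58, -0.59 and -0.42 for Cxcl12, Adipoq, Spp1 and Alpl. The cells share plates, and no label ties them to animals, so these are descriptions without a p-value, and rho with the total count per cell was -0.14 for Lepr, 0.03 for Pdgfra and -0.04 for Pdgfrb.

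The Lepr relations differed between clusters. Within CAR-like cluster 1 rho with Cxcl12 was 0.39, with Adipoq -0.16 and with Spp1 0.06 (29 cells). Within cluster 2 rho with Cxcl12 was 0.75, with Adipoq -0.32 and with Spp1 0.15 (16 cells), with Cxcl12 from 0 to 1101 CPM. The Spearman coefficient with Adipoq was 0.01 within cluster 3, 0.57 within cluster 5 and 0.46 within cluster 6. With Spp1 it was -0.64 within cluster 3, 0.01 within cluster 5 and -0.60 within cluster 6. The positive relation to Adipoq was thus found inside clusters 5 and 6, and the negative one to Spp1 inside clusters 3 and 6.

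Pdgfrb had the next strongest relation to Cxcl12, with rho 0.58 over 88 cells, 0.71 in CD61+ and 0.35 in CD61- cells. One plate went the other way, with -0.09 in CD61- plate P1, as did CAR-like cluster 1, with -0.22 (29 cells). Within clusters 2, 3, 5 and 6 rho with Cxcl12 was 0.53, 0.48, 0.64 and 0.36. Over the 88 cells Pdgfrb had a rho of 0.36 with Adipoq, 0.06 with Alpl and -0.16 with Spp1. With Adipoq it was -0.28, -0.46, -0.01, 0.61 and 0 within clusters 1, 2, 3, 5 and 6. Among cells with a count of both genes, the relation of Pdgfrb to Adipoq was 0.0010. In the 79 cells outside the mixed cluster Pdgfrb had 0.49 with Cxcl12, 0.26 with Adipoq, -0.06 with Alpl and -0.32 with Spp1.

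Over the pooled 88 cells Pdgfra had weak relations to the 4 genes. Its Spearman coefficient was 0.30 with Cxcl12 (0.55 in CD61+ and 0.12 in CD61- cells), 0.19 with Adipoq, 0.25 with Alpl and 0.02 with Spp1. Pdgfra was the only member with a rho above 0.1 with Alpl over the 88 cells, and it stood at 0.25 in CD61+ and 0.24 in CD61- cells, but among cells with a count of both genes that value was -0.0095. Outside the mixed cluster Pdgfra had 0.24 with Cxcl12, 0.13 with Adipoq, 0.23 with Alpl and -0.06 with Spp1. Single clusters differed in size and sign. Within clusters 1, 2, 3, 5 and 6 Pdgfra had -0.03, -0.43, -0.25, 0.30 and 0.47 with Cxcl12. In the same order it had 0.01, 0.05, 0.02, 0.59 and 0.14 with Adipoq, and 0.45, -0.20, -0.21, 0.26 and -0.01 with Alpl. With Spp1 it had 0.11, -0.18, -0.24, -0.09 and -0.03. Among the receptors themselves, rho was 0.53 for Lepr and Pdgfrb (0.70 in CD61+, 0.24 in CD61- cells), 0.29 for Pdgfra and Pdgfrb, and 0.17 for Lepr and Pdgfra. These were 0.43, 0.17 and 0.06 without the mixed cluster. Over the pooled cells the PDGF receptors thus did not follow each other more closely than Pdgfrb followed Lepr. Inside clusters 1 to 6, rho for Lepr and Pdgfrb was 0.19, 0.46, -0.01, 0.60, 0.62 and -0.53. For Pdgfra and Pdgfrb it was 0.26, -0.34, -0.41, 0.86, 0.04 and 0.59 in the same order. The PDGF receptors thus followed each other more closely in clusters 1, 4 and 6, and less closely in clusters 2, 3 and 5. In cluster 4 only 3 of 9 cells had Pdgfra and 5 had none of the 3 genes, so shared zeros enter its 0.86. In cluster 1 the 2 values lay close together.

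**Figure D4:**
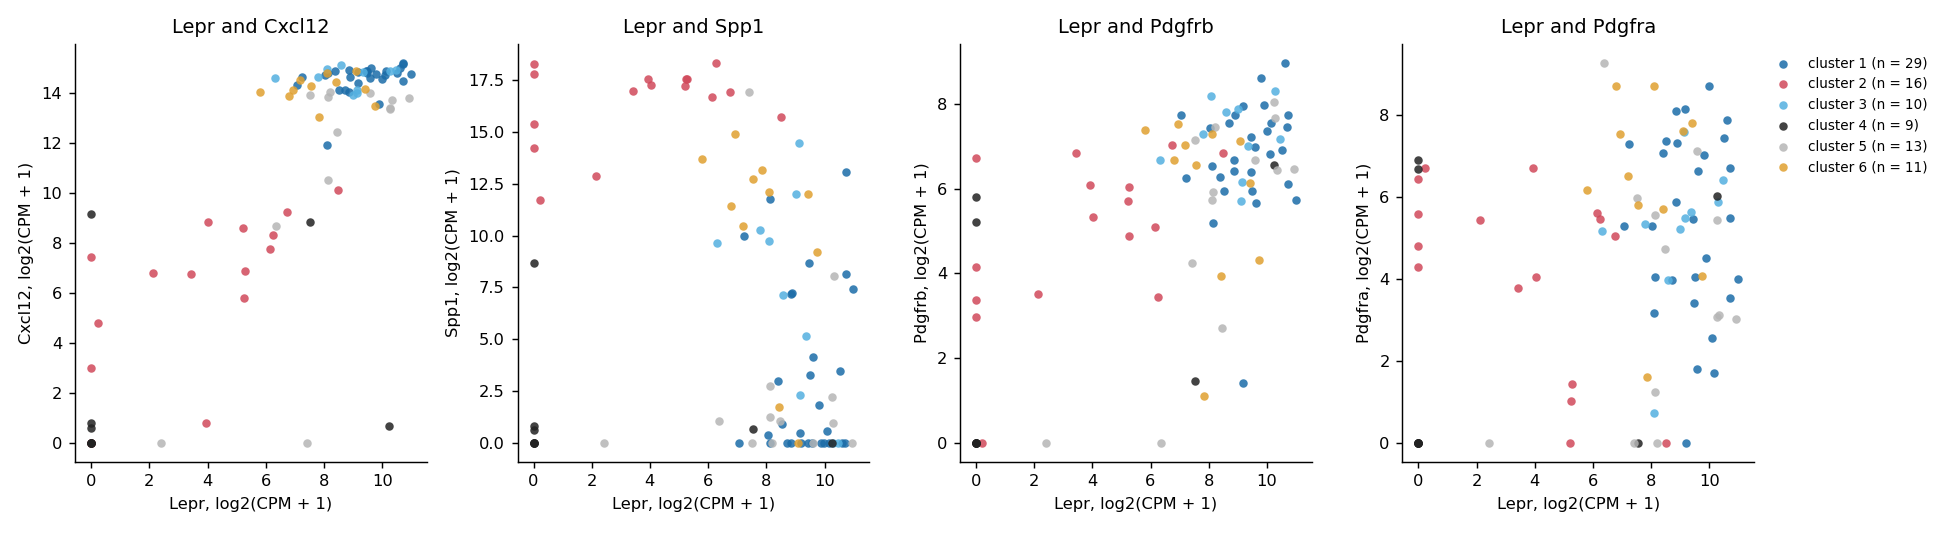
Lepr of each of the 88 cells with a gate against Cxcl12, Spp1, Pdgfrb and Pdgfra, all as log2(CPM + 1), coloured by cluster. The cells of cluster 2 combine high Spp1, low Cxcl12 and Lepr of at most 360.7 CPM, while Pdgfra shows no such split (rho 0.68 for Lepr with Cxcl12 and 0.17 with Pdgfra).

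The index channels give each cell's surface signal at the sort. Lepr was lower in cells with more CD200, a surface glycoprotein used here as an index marker: rho was -0.47 over 88 cells, -0.65 in CD61+ and -0.30 in CD61- cells, and negative in all 4 plates (-0.68 to -0.23). In the VCAM1+ cells it was 0.29 (9 cells), and without the mixed cluster -0.60 (79 cells). Within cluster 1 it was -0.07 and within cluster 2 it was -0.01, and CD200 intensity was 20 to 923 in cluster 1 and 679 to 7834 in cluster 2. Within cluster 5 it was -0.55 and within cluster 6 it was -0.42. The negative relation to CD200 was thus near 0 inside clusters 1 and 2 and present inside clusters 5 and 6. Lepr and the Cd200 transcript had a rho of -0.10.

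Lepr was also lower in cells with more CD45 signal, all of which had been sorted as CD45-: rho was -0.45 over 88 cells, -0.53 in CD61+ and -0.26 in CD61- cells. CD45 and CD200 intensity went together across cells (rho 0.68), and the part of either in the other's relation to Lepr was not tested. For the CD61 intensity that set the gates, rho with Lepr was -0.29 over 88 cells, -0.45 within CD61+ and 0.10 within CD61- cells. The CD61 signal therefore ran against Lepr within CD61+ cells and not within CD61- cells. For VCAM1 it was -0.09, for CD51 -0.21, for CD71 -0.33 and for forward scatter, a measure of cell size, -0.22. Outside the mixed cluster the Lepr values were -0.45 for CD45, -0.37 for CD61, -0.12 for VCAM1, -0.22 for CD51, -0.30 for CD71 and -0.35 for forward scatter.

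Over all cells with a gate, the PDGF receptors had weaker relations to the channels. Over the 10 channels and 88 cells the rho of Pdgfra farthest from 0 was 0.16, with Ter119/CD41. Pdgfrb had -0.24 with CD45 and -0.12 with CD200 over 88 cells. Within CD61+ cells Pdgfrb had -0.47 with each, and in CD61- cells -0.05 and 0.12. VCAM1, the antigen on which every cell was sorted, had a rho of 0.06 with Pdgfrb and -0.09 with Pdgfra. Without the mixed cluster Pdgfra had 0.23 with CD45 and 0.23 with Ter119/CD41, and Pdgfrb had -0.17 with CD45, -0.16 with CD200 and -0.27 with forward scatter. Inside clusters the order of the genes was not kept. Within cluster 1 Pdgfra had 0.45 with CD45 and 0.44 with CD200, where Lepr had -0.32 and -0.07. Within cluster 6 Pdgfra had 0.49 with CD61 and 0.45 with CD45, where Lepr had -0.27 and -0.41, and Pdgfrb had 0.56 with CD45.

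**Figure D5:**
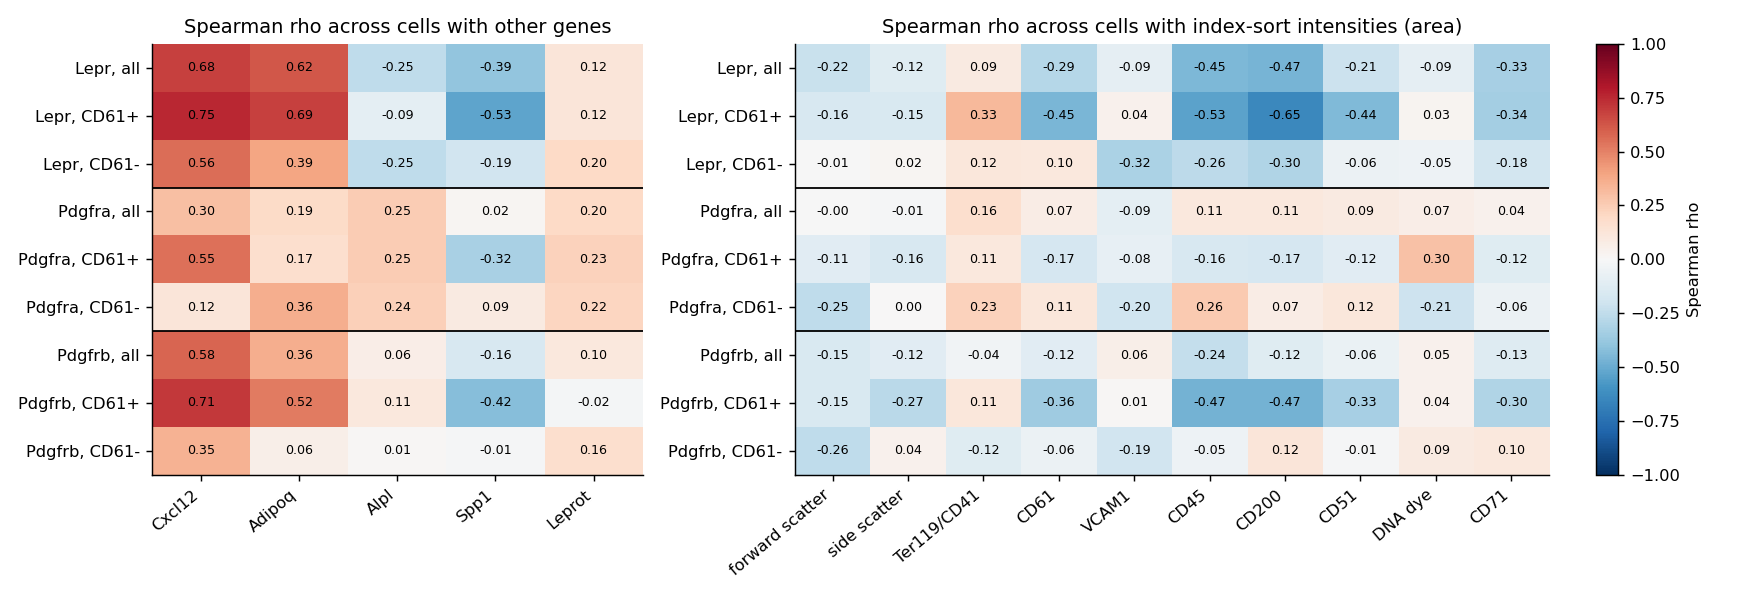
Spearman rho of each gene with 4 stromal genes and Leprot (left) and with 10 index-sort area intensities (right), over 88 cells and within the CD61+ and CD61- gates; red is positive and blue negative. The strongest values belong to Lepr, 0.75 with Cxcl12 and -0.65 with CD200 in CD61+ cells, and over the 88 cells those of Pdgfra with the channels are at most 0.16 from 0.

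Among 3887 genes counted in at least 50% of the 88 cells, those most like Lepr were Fmo2 (a monooxygenase, rho 0.74), Kitl (stem cell factor, 0.73), Lpl (lipoprotein lipase, 0.73), Esm1 (endocan, 0.71) and Tmem176b (0.69). Cxcl12 ranked 8th, Adipoq 32nd, Pdgfrb 83rd and Pdgfra 763rd. Lepr had 106 genes with rho of at least 0.5, Pdgfrb 19 and Pdgfra 0. The lowest values for Lepr were those of Pkm (pyruvate kinase, -0.48), Ctnnb1 (beta-catenin, -0.47), Msn (moesin, -0.46), Nsa2 (-0.44) and Slc25a5 (-0.44). That list depended on the minimum of 50%. Among 9015 genes counted in at least 20% of cells, the genes named as highest stayed and those named as lowest all changed. The lowest were then Mef2c (-0.58), Cyfip2 (-0.57), Cpe (-0.54), Bglap3 (-0.50) and Timp3 (-0.50).

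The genes most like Pdgfrb were Gas6 (a ligand of TAM receptors, 0.60), Cxcl12 (0.58), Vegfc (a lymphatic growth factor, 0.56), Arrdc4 (0.56) and Wdr86 (0.55), with Lepr ranked 8th. The lowest for Pdgfrb were Eef1a1 (-0.41), Msn (-0.38), Atp5b (-0.38), Pkm (-0.35) and Ptp4a1 (-0.33). At the 20% minimum only Eef1a1 stayed among them, beside Mef2c (-0.42), Timp3 (-0.40), Syngr2 (-0.39) and Tspo (-0.39). The genes most like Pdgfra were Itga11 (the collagen-binding integrin alpha 11, 0.47), Clcn7 (0.46), Itm2a (0.45), Ggt5 (0.45) and Rbms3 (0.42). The lowest for Pdgfra were Pfn1 (profilin, -0.37), Lamtor1 (-0.37), Bzw1 (-0.37), Slc25a5 (-0.37) and Atp5l (-0.36). The 3 genes thus shared no gene among the 5 with the highest rho, although Cxcl12 and Lepr stood high for Pdgfrb.

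Transcripts of PDGF receptor ligands were counted in these cells. The ligand gene Pdgfb was not in the count table, so its level is not known here. All 3 tested ligand genes, Pdgfa, Pdgfc and Pdgfd, were higher in both CD61+ plates, beside 20.0% of all genes tested, and 1 of 3 passed 2-fold, beside 19.4%. Pdgfa was 109.6 CPM in CD61+ and 72.2 CPM in CD61- cells, and Pdgfd 26.6 and 14.4 CPM, 1.85-fold higher in CD61+ and up to 2.81-fold with 1 cell left out. Pdgfc was 19.1 and 1.54 CPM, although it was counted in 17 cells of each gate, and 1 cell held 53.9% of its CD61- counts. With 1 cell left out its ratio ran from 9.84-fold to 26.2-fold. Pdgfa went against Lepr, with rho -0.35 over 88 cells and negative in the 4 plates (-0.63 to -0.34), and had a rho of -0.02 with Pdgfra and -0.04 with Pdgfrb. All 3 ligands had their highest median in osteolineage-like cluster 2: 124 CPM for Pdgfa, 27.9 for Pdgfc and 18.6 for Pdgfd. In cluster 3 the medians were 21.1, 0 and 6.8 CPM, and in every other cluster they were 0. Summed Pdgfc was 36.4 CPM in cluster 2 and at most 0.291 CPM elsewhere. Summed Pdgfa was 192 CPM in cluster 2 and 129 CPM in cluster 5, where 1 cell held 98.8% of the counts. Cluster 2 held 13 CD61+ and 2 CD61- cells, and its part in the gate differences was not tested.

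For the leptin locus and signalling list, 2 of 13 genes were at least 2-fold lower, 0 higher, 3 lower and 1 higher by plates, with a median log2 ratio of -0.37. Over all genes tested the same shares were 17.3%, 19.4%, 17.8% and 20.0%, so that the counts of lower genes lay near those of any genes. Socs3, a feedback inhibitor of the receptor, was 497 CPM in CD61+ and 849.8 CPM in CD61- cells, with overlapping plates. Cish, a related inhibitor, was 16.6 and 53.3 CPM, lower by both rules (log2 ratio -1.68, and -2.40 to -1.30 with 1 cell left out). Ptpn1, the phosphatase that acts on JAK2, was 177 and 257 CPM and lower by plates. Irs2, an adaptor, was 3.91 and 9.17 CPM with overlapping plates, and its log2 ratio of -1.23 ran from -3.11 to -0.62 with 1 cell left out. Leprot, the neighbouring gene, was 138 and 137 CPM (log2 ratio 0.02), and its rho with Lepr was 0.12.

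Of 15 tested PDGF receptor adaptors and effectors, 2 were at least 2-fold lower and 3 higher, and by plates 3 were lower and 3 higher, with a median of -0.28. These counts lay near the shares over all genes tested, 17.3% and 19.4% by 2-fold and 17.8% and 20.0% by plates. Pik3r1, the regulatory subunit of PI3-kinase, was 92.3 CPM in CD61+ and 317 CPM in CD61- cells and lower in both plates. Plcg1, phospholipase C gamma, went the other way at 40.1 and 7.24 CPM, counted in 21 and 5 cells. Of its CD61- counts 66.6% were in 1 cell, and with 1 cell left out its 5.54-fold ratio ran from 4.55 to 16.1. The list thus held members on both sides. The co-receptors Lrp1 (221 and 287 CPM) and Nrp1 (173 and 266 CPM) stayed under 2-fold, as did the adaptor Shc1 (78.0 and 119.9 CPM), while the catalytic Pik3ca was 4.94 and 10.9 CPM with overlapping plates. For Pik3ca 1 cell held 70.1% of the CD61- counts, and with 1 cell left out the log2 ratio ran from -1.61 to 0.55, so its direction turned. That of Lrp1 turned as well (-0.47 to 0.08). Nrp1 and Shc1 were lower in both CD61+ plates.

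Among receptor kinases related to the PDGF receptors, 3 of 6 genes could be tested and 1 was lower and 1 higher by 2-fold, beside 17.3% and 19.4% of all genes. Flt1, a VEGF receptor, was 15.6 and 0.468 CPM with overlapping plates, and Flt3 was 0.0652 and 1.49 CPM. With 1 cell left out the log2 ratio ran from 3.91 to 5.42 for Flt1 and from -5.24 to -2.80 for Flt3. Of 8 tested genes of the gp130-type receptor list, 1 was lower and 1 higher by 2-fold, near the same shares of all genes, with a median of -0.31. Lifr, the leukaemia inhibitory factor receptor, was 703 and 482 CPM and higher in both CD61+ plates. Csf3r (0.443 and 0.0653 CPM) had 34 and 6 counts. Clcf1 (0.822 and 4.67 CPM) was counted in 3 and 2 cells, with 92.8% of the CD61- counts in 1 cell, and its log2 ratio ran from -4.12 to 1.24 with 1 cell left out.

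Of 13 tested progenitor surface genes, 0 were lower and 6 higher by 2-fold, and 2 were lower and 6 higher by plates (median 0.46), beside 17.3%, 19.4%, 17.8% and 20.0% of all genes. Itgb3, one of those higher by both rules, encodes the CD61 antigen that defined the gates. Vcam1 was 575 CPM in CD61+ and 1024 CPM in CD61- cells, lower in both plates, and had a rho of 0.57 with Lepr. Ly6a was 555 and 40.5 CPM but rested on 5 CD61+ cells and 1 CD61- cell. Thy1 was 18.6 and 2.31 CPM, with 82.4% of the CD61+ counts in 1 cell and a ratio from 1.45-fold to 10.1-fold with 1 cell left out, and Itgav (189 and 183), Eng (131 and 106) and Cd200 (374 and 284 CPM) overlapped by plate. Grem1, a marker of skeletal progenitors, had a rho of 0.54 with Lepr, 0.39 with Pdgfrb and 0.35 with Pdgfra. Other genes of this list ran against Lepr over the 88 cells: Cspg4 (-0.50), Itgb3 (-0.35), Ly6a (-0.32) and Mcam (-0.31). Cells with a count of both were few, 11, 17, 4 and 1 in the same order. Itgav had 0.24 and Prrx1 0.21 with Lepr, and the remaining genes lay between -0.17 (Nes) and 0.05 (Eng).

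The marker lists moved with the gates beside Lepr. Of 12 CAR markers 8 were at least 2-fold lower in CD61+ and 10 lower by plates (median -1.04), and of 14 osteolineage markers 9 were at least 2-fold higher and 12 higher by plates (median 1.13), beside 17.3% lower and 19.4% higher by 2-fold and 17.8% and 20.0% by plates over all genes. The summed CAR markers had a median of 22467 CPM in CD61+ (144 to 57032) and 42332 CPM in CD61- cells (0.728 to 71907). Of 8 tested fibroblast markers 7, and of 6 endothelial markers 4, were at least 2-fold higher in CD61+, where 5 cells had Ly6a. By plates 4 of the 8 and 1 of the 6 were higher. The summed endothelial markers had a median of 0 CPM in each CD61 gate (at most 19317 CPM in CD61+ and 14538 CPM in CD61- cells). The summed fibroblast markers had medians of 1633 and 478 CPM. Their highest cell had 107374 CPM on CD61+ plate P2 and 5307 CPM on CD61+ plate P1. For Ly6a, 1 cell held 54.6% of the CD61+ counts. Of 5 smooth muscle and pericyte markers tested 1 was lower and 1 higher by 2-fold, of 3 blood cell markers 1 and 2, of 2 chondrocyte markers 1 and 1, and of 2 Schwann cell markers 0 and 0. These lists were chosen with earlier results of these data known, and their part in the level of Lepr was not tested.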

How the data were processed

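Single-cell mRNA was read by Smart-seq2 from 91 index-sorted cells, each deposited as 1 sample. The deposited table holds expected counts per gene, estimated by the authors with kallisto 0.43.0 and R 3.5.1 on mm10, per the submitters' processing notes; its values are whole numbers, and column sums equal the deposited total count in 91 of 91 cells. The deposited index values are fluorescence or scatter intensity per cell; 27 further metadata columns were not used. How reads of overlapping or near-identical transcripts were shared was not given in the sources read here.

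Counts were divided by each cell's total (CPM), and gates and plates were compared by summed counts, with no test because the labels name no animal. For all-gene comparisons, genes needed at least 10 counts and a count in at least 5 cells of the CD61 gates (14063 of 16580); a call was 2-fold by sums, or no overlap of the plates. A sum of 3 counts or fewer was set to 3 in ratios. Correlations used log2(CPM + 1), computed from the deposited counts. Leiden clusters (scanpy 1.11.5, 15 components, 10 neighbours, resolution 1) left out the 3 genes, and no doublet caller was run on sorted wells. Intervals are exact at 95%. TMM (edgeR 4.0.16) and DESeq2 1.42.0 size factors served as scaling alternatives only. The named genes were the 3 members, 4 comparison genes and, for each member, the 5 highest and 5 lowest by rho. Both were taken among genes counted in at least 50% of cells (mitochondrial, ribosomal protein, Gm and Rik genes left out). Every PDGF ligand in the count table was named, and at most 6 members of each other list by level. Those list members had at least 100 CPM or were past 2-fold. A minimum of 20% of cells and correlations with Lepr added further genes. Promoter bases came from RefSeq. Scripts were tested on simulated data. The members, lists and rules were chosen with earlier results of these data known.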

Additional observations from a re-analysis of the deposited data

Results flagged for a closer look

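In the 9 VCAM1+ cells, 1 cell stood apart for each PDGF receptor: the highest Pdgfra was 234 CPM beside a next value of 117 CPM, and the highest Pdgfrb was 498 CPM beside a next value of 125 CPM. Each lay farther from the next value than Dixon's 95% limit allows, and Lepr in the same gate did not. The gap ratios were 0.4997 and 0.748 against a limit of 0.493, so Pdgfra only just passed. That limit is made for like replicates, and these 9 cells were of mixed kinds. It therefore flags a value and gives no error rate. Both values came from the same cell, in well G12 of plate P210X, which lay in CAR-like cluster 1. The 3 cells whose title and gate label disagree entered no comparison. All 3 had Lepr, at 881, 737 and 172 CPM for wells B6, D9 and G6, and Pdgfrb, at 137, 151 and 97.2 CPM. Pdgfra stood at 11.0 CPM in B6 and 55.3 CPM in G6, and D9 had no count.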

How the results depend on the processing

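The log2 ratios between the CD61 gates kept within the spread of the plate pairs under TMM, DESeq2 size factors, mean CPM, thinning to 500000 counts and, chosen after seeing the data, without the mixed cluster. The ratio of Pdgfra turned to 0.07 with mean CPM and 0.06 with thinning, and that of Pdgfrb to 0.06 with thinning. Leaving out 1 plate or 1 cell gave -1.14 to -0.59 for Lepr, -0.43 to 0.09 for Pdgfra and -0.47 to 0.06 for Pdgfrb. Detection changed most with a minimum of 10 CPM: Pdgfra then passed in 72.5% of CD61- cells and all 3 genes in 58.2% of all cells. With 1 plate left out, detection in CD61+ cells ran from 82.4% to 86.4% for Lepr, 82.4% to 90.9% for Pdgfra and 88.2% to 100% for Pdgfrb, and in CD61- cells from 87.5% to 100%, 87.5% to 93.8% and 87.5% to 100%.

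Over cells with a count of both genes, rho was 0.26 for Lepr and Adipoq, 0.0010 for Pdgfrb and Adipoq, -0.25 for Pdgfrb and Alpl, and turned to -0.0095 for Pdgfra and Alpl. Within CD61- cells it was 0.39 for Lepr and Adipoq, and within CD61+ cells -0.32 for Pdgfra and Spp1. Within VCAM1+ cells it was 0.58 for Pdgfra and Pdgfrb and -0.36 for Pdgfrb and Alpl. Without the mixed cluster it was -0.42 for Lepr and Alpl. With 1 plate left out, the values of Lepr ran from 0.63 to 0.72 with Cxcl12, 0.52 to 0.64 with Adipoq, -0.29 to -0.14 with Alpl and -0.44 to -0.30 with Spp1. Those of Pdgfra ran from 0.25 to 0.39, 0.16 to 0.23, 0.18 to 0.33 and -0.06 to 0.13, and those of Pdgfrb from 0.52 to 0.69, 0.32 to 0.44, 0.03 to 0.12 and -0.21 to -0.11. The cause of these changes was not tested.

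Among the index channels the sign turned for Lepr with CD61 within CD61- cells (0.10), with CD200 (0.29) and CD51 (0.44) within VCAM1+ cells, and with the DNA dye within CD61+ cells (0.029), and with 1 plate left out the dye value ran from -0.16 to 0.078. No paired analysis was possible because no comparison had a test and no label says that a plate number marks a shared animal or day. Within plate numbers, described without a test or replicate block, summed Lepr and Pdgfra were lower in CD61+ for both numbers and Pdgfrb only for P1. Depth limits the absence of a gene in a cell: 11 cells without Lepr may hold transcripts that were not captured, and the number of animals is not known.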
